A study of Mus musculus with 12 samples.

Results

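Imprinted genes are transcribed mainly from the copy inherited from 1 parent, and they sit in clusters that share a control region whose DNA is methylated on 1 parental copy. Several clusters hold a long noncoding RNA that silences neighbouring protein-coding genes in cis, on the parental copy it is made from, while the other copy of those genes stays in use. In embryonic stem cells (ESC) the long RNAs of the Dlk1-Meg3 cluster are widely used to judge the quality of imprinting, and most imprinted growth regulators become abundant only in the placenta, the embryo or the brain. Here 45 imprinted genes and noncoding RNAs were looked up by symbol in the authors' deposited expression table of 19716 genes, and 44 of them have a row. Kcnk9, a potassium channel gene, was not analysed here.

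The RNA came from mouse ESC that carry a transgene for HA-Flag-AGO2, a tagged Argonaute protein that binds miRNAs, under doxycycline (dox) control. The 4 groups were nuclear RNA from cells given 2.5 ug/ml dox for 15 h, nuclear RNA from cells without dox, and whole-cell (total) RNA from cells with and without the same dox. All groups were the same transgenic line at passage 8 to 15, grown on gelatin with serum and leukemia inhibitory factor. Strand-specific libraries were made after removal of ribosomal RNA, and the labels list 3 per group without saying whether these came from separate cultures, so each p-value measures only the spread between libraries, which may be technical.

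The deposited values are group means of log2 RPKM (reads per kilobase of transcript, scaled to library depth), so RPKM below are the authors' means, printed without an SD, and no value of a single library enters. The means rest on 10 of the 12 libraries, and the depths recovered from the table were 10.3 to 11.8 M reads in the dox libraries and 15.3 to 18.9 M in the libraries without dox. Ago2, the gene behind the transgene, was lower in the columns labelled dox, with authors' means of 2.39 against 8.65 RPKM in nuclei and 3.43 against 9.12 RPKM in whole cells (log2 -1.85 and -1.41). Induction would raise this row only if transgene reads were counted in it, which the sources used here do not state. The reason for the lower value was not tested, so each direction below holds for the columns as they are labelled. All 10 ESC markers were present, and their summed means were higher in the dox columns, at 2543 against 912 RPKM in nuclear and 4238 against 1835 RPKM in total RNA. Dppa5a held most of these sums, at 1805 against 617 RPKM in nuclear and 3387 against 1394 RPKM in total RNA. Of the 10, 6 were higher and 1 lower in nuclear and 7 and 2 in total RNA. None of the 7 primitive endoderm or 4 fibroblast markers in the table reached 1 RPKM in any group, and their summed means were at most 0.590 and 0.938 RPKM. Of the 8 trophectoderm markers, Krt8, Krt18 and Tfap2c were tested and were higher in the dox columns. The summed level of the 8 was 26.5 against 7.86 RPKM in nuclear and 109 against 33.3 RPKM in total RNA. Krt8 held most of it, at 17.4 against 4.40 RPKM and 92.5 against 27.8 RPKM. Cdx2, which defines the trophectoderm, was at 0 to 0.00212 RPKM. Of 6 neuroectoderm markers Nes and Tubb3 were tested. Tubb3 was higher, at 32.1 against 5.67 RPKM in nuclear RNA, Nes did not pass in nuclear (log2 -0.14, adjusted p = 0.561) or total RNA (0.11, adjusted p = 0.673), and Pax6 stayed at 0.0376 to 0.162 RPKM, and no mesoderm marker reached 1 RPKM. The part of these markers' cells in the results was not tested. In bulk RNA fewer cells with a transcript and less of it per cell cannot be told apart.

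A member was tested where its mean reached 1 RPKM in at least 1 group. This left 28 members, 6 of them noncoding (Meg3, Rian, Mirg, Kcnq1ot1, H19 and Nespas). The other 16 stayed under 1 RPKM in every group: Dlk1, Kcnq1, Cdkn1c, Slc22a18, Ascl2, Igf2, Airn, Usp29, Zim1, Sgce, Magel2, Peg12, Peg13, Nap1l5, Inpp5f and Rasgrf1. The filter was passed through the highest group, so counts among tested members describe those members alone. Coordinates are mm10, with gene models from GENCODE vM21. The authors' own gene annotation is not given in the sources used here.

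Promoters are shown for members that moved together or as neighbours. Meg3 and Kcnq1ot1 are the long noncoding RNAs with the largest falls in the dox columns among the 28 tested members. Snurf has a window that is also among those of Snrpn. Commd1 and Zrsr1 are a pair on opposite strands that moved in opposite directions. Each promoter shown is 300 bases of GRCm38.p6 from RefSeq. It runs from 250 bases before the transcription start to 50 after it, 5′ to 3′ on the gene's strand. Capitals mark TGCCGC or its reverse complement GCGGCA, the core motif that the imprint-protecting zinc finger protein ZFP57 is known to bind when its CG is methylated.
Meg3: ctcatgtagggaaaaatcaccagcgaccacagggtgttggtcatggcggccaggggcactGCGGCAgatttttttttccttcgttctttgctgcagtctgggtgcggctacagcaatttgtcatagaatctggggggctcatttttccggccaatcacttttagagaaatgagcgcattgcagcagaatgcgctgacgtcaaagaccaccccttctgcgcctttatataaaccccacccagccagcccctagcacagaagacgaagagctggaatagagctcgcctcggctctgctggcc
Kcnq1ot1: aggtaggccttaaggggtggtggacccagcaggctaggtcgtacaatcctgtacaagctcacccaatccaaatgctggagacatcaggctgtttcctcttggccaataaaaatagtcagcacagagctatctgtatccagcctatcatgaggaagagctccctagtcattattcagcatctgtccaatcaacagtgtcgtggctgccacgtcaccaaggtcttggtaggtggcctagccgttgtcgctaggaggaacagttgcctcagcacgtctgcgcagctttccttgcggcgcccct
Snurf: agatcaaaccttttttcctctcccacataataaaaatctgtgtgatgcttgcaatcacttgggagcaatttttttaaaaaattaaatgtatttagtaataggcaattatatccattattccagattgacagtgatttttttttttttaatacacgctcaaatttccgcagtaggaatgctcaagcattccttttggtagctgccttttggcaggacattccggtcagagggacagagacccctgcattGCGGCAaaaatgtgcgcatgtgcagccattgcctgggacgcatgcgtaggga
Commd1: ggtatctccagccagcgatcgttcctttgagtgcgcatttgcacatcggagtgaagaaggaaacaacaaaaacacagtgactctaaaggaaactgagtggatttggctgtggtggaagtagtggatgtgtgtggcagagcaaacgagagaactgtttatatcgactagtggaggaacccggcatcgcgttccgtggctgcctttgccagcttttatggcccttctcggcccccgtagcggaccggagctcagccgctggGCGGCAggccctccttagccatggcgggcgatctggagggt
Zrsr1: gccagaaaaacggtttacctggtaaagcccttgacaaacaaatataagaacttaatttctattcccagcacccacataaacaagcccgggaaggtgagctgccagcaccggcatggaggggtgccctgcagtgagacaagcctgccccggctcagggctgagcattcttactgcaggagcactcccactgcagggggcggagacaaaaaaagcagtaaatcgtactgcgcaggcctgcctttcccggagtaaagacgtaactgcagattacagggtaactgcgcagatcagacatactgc
The Meg3 window (chr12:109540746-109541045, plus strand), the Snurf window (chr7:60005150-60005449, minus strand) and the Commd1 window (chr11:22982235-22982534, minus strand) each hold the motif 1 time. It was not found in the letters of the Kcnq1ot1 window (chr7:143296498-143296797, minus strand) or the Zrsr1 window (chr11:22971755-22972054, plus strand). Searched on both strands, the motif was found for 13 of the 35 members with a promoter in the RefSeq table (37.1%) and for 13.1% of all 27025 genes. These 13 were Meg3, Snurf, Snrpn, Commd1, Mest, Copg2, Mcts2, Nnat, Nap1l5, Zim1, Igf2, Plagl1 and Grb10. Snurf and Snrpn share a window, so they are not separate cases. Meg3, Commd1 and Snrpn also have other windows, in which the motif was not found. CG-rich windows hold the motif more often: among windows with at least 10 CG, it was in 35.3% of 34 member windows and 22.5% of 14281 windows of all genes. A match is a description of letters, not a binding site. The lack of a match holds for these 300 bases alone, since the control regions and the rest of each locus were not searched.

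Dox against no dox is the comparison built around the induction of AGO2. Since Ago2 was lower in the columns labelled dox, it is given here as a difference between columns as labelled. Among the imprinted genes, 5 of 6 long noncoding RNAs were lower in the dox columns of both nuclear and total RNA, and H19 alone of the 6 was higher. In nuclear RNA 10 members were higher, 10 were lower and 8 did not pass (limma, Benjamini-Hochberg adjusted p below 0.05), while 43.1% of all tested genes were higher and 26.3% lower. In total RNA the counts were again 10, 10 and 8, against 41.5% higher and 22.8% lower among all tested genes. The median log2 fold change of the members was -0.13 in nuclei and -0.18 in whole cells, and that of all tested genes 0.28 and 0.26. The 6 noncoding members had medians of -1.84 and -1.59, and the 22 coding members 0.26 and -0.02, with 9 higher, 5 lower and 8 that did not pass in each fraction. With the length trend removed the noncoding medians were -0.86 and -0.72 and the coding ones -0.26 and 0.02, and with the length and GC trends removed they were -0.85 and -0.65, and 0.06 and -0.02. With quantile normalization they were -2.47 and -2.02 for noncoding and -0.06 and -0.03 for coding members. The nuclear and total comparisons share 1 residual spread per gene and are not independent in that respect.

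**Figure D1:**
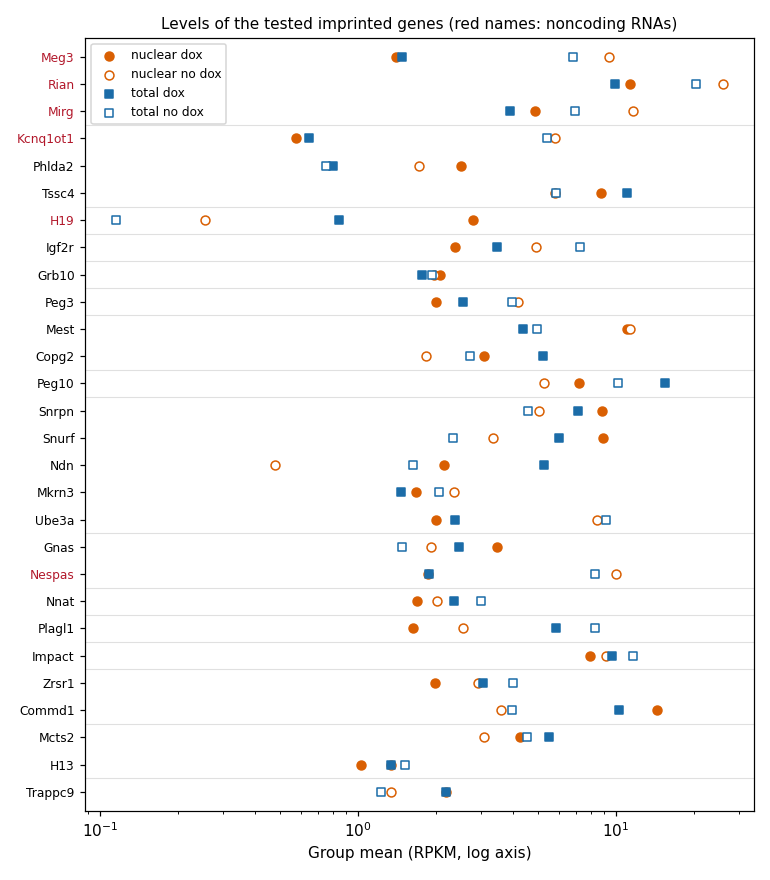
Authors' group means in RPKM (log axis) of the 28 tested imprinted members, grouped by locus, with noncoding RNAs in red. Filled marks are dox columns and open marks no dox columns, circles are nuclear and squares total RNA; for Kcnq1ot1 both filled marks lie under 1 RPKM and both open marks above 5 RPKM.

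**Figure D2:**
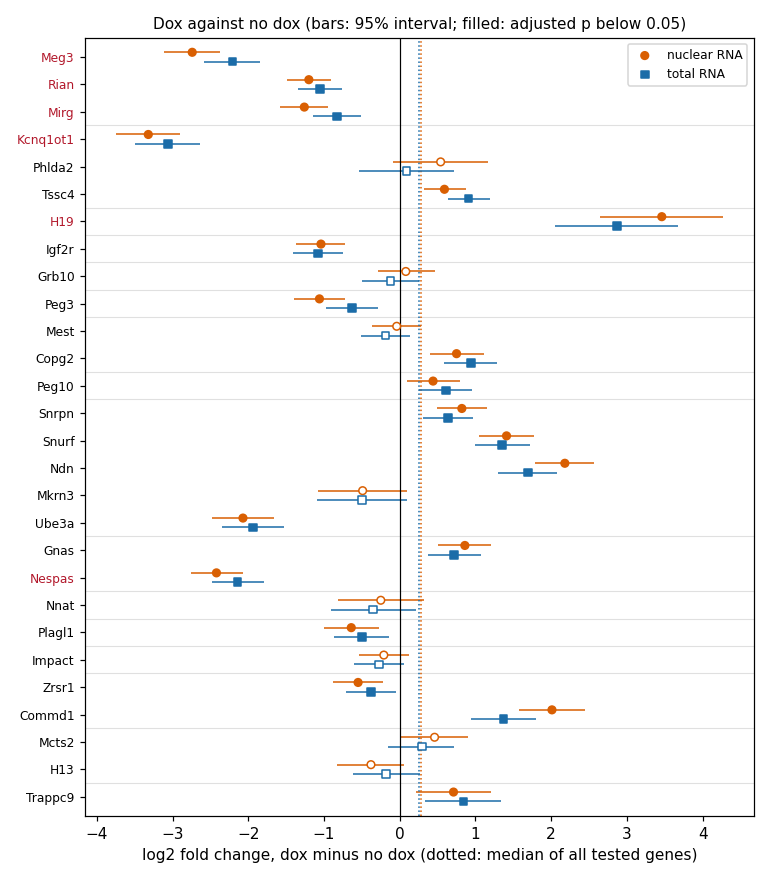
Log2 fold change of dox against no dox for each tested member, in nuclear (orange) and total (blue) RNA. Bars are 95% intervals, filled marks passed at an adjusted p below 0.05, and dotted lines are the medians of all tested genes (0.28 and 0.26); the red names, noncoding RNAs, lie left of 0 except H19.

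Kcnq1ot1 is the paternally made antisense RNA that silences the maternally expressed genes of the Kcnq1 domain (chr7:143203458-143296549, minus strand). The authors' means were 0.578 RPKM in nuclear dox, 5.80 RPKM in nuclear no dox, 0.646 RPKM in total dox and 5.41 RPKM in total no dox. Both dox columns thus lay far below both no dox columns, and nuclear and total RNA were close to each other. Kcnq1ot1 was 10.01-fold lower in nuclear RNA (log2 -3.32, SE 0.198, adjusted p = 1.28e-08) and 8.36-fold lower in total RNA (log2 -3.06, SE 0.198, adjusted p = 4.85e-08). Its annotated exon spans 93.1 kb, and dox differences fell with exon length over all genes. With the length trend alone removed Kcnq1ot1 still passed as lower in nuclear and total RNA. With that trend and the trend on GC content removed its difference no longer passed (log2 -0.15, adjusted p = 0.520 in nuclear RNA, and -0.18, adjusted p = 0.451 in total RNA). Kcnq1, the potassium channel gene that lies across it on the other strand, had means of 0.00234 to 0.0568 RPKM.

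Of the coding genes of the Kcnq1 domain, only Tssc4 and Phlda2 were tested, and the others lay under the filter. Whether these genes as a group mirror Kcnq1ot1 was not tested. Tssc4, a maternally expressed gene for a protein of spliceosome assembly, averaged 8.77 RPKM in nuclear dox, 5.81 in nuclear no dox, 11.03 in total dox and 5.87 in total no dox. It was 1.51-fold higher in nuclear (adjusted p = 9.95e-04) and 1.88-fold higher in total RNA (adjusted p = 3.49e-05). The nuclear direction turned with quantile normalization (log2 -0.01), with the length trend removed (-0.26) and with the length and GC trends removed (-0.51). In total RNA Tssc4 no longer passed with the length trend removed (log2 0.27, adjusted p = 0.0841) or with the length and GC trends removed (0.05, adjusted p = 0.759). Phlda2, a brake on placental growth, averaged 2.50, 1.72, 0.801 and 0.754 RPKM in the same order. In the main test it did not pass in nuclear (log2 0.54, adjusted p = 0.114) or total RNA (0.09, adjusted p = 0.806). Over the alternatives its lowest adjusted p in total RNA was 0.0436, with log2 values from -0.73 to 0.69. Cdkn1c, the cell cycle inhibitor p57, Ascl2, a placental transcription factor, and Slc22a18, a transporter gene, ranged from 0.00794 to 0.764 RPKM and were not tested. About 4 to 13 reads per library stand behind Ascl2 in nuclear RNA, where its means were 0.764 RPKM with and 0.153 RPKM without dox.

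Meg3, Rian and Mirg are made from the maternal copy of chromosome 12, one after another on the plus strand, and carry many snoRNAs and miRNAs in their introns and exons. Meg3 (chr12:109541001-109571726) averaged 1.41 RPKM in nuclear dox, 9.42 RPKM in nuclear no dox, 1.48 RPKM in total dox and 6.84 RPKM in total no dox. It was 6.69-fold lower in nuclear (log2 -2.74, SE 0.172, adjusted p = 1.96e-08) and 4.63-fold lower in total RNA (log2 -2.21, SE 0.172, adjusted p = 2.23e-07). Meg3 stayed lower in nuclear and total RNA in each of the alternatives run, with log2 values from -3.09 to -1.65 in nuclear RNA. Rian (chr12:109603940-109661716), the host of many C/D box snoRNAs, was the most abundant noncoding member per length at 11.4, 26.02, 9.89 and 20.5 RPKM in that order. Its fall was smaller, 2.29-fold in nuclear (log2 -1.20, SE 0.135, adjusted p = 4.09e-06), and 2.07-fold in whole cells (log2 -1.05, SE 0.135, adjusted p = 1.64e-05). Rian no longer passed with the length trend removed (log2 -0.09 and -0.15), and with the length and GC trends removed it was higher in the dox columns (log2 1.09 and 1.05).

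Mirg (chr12:109729764-109749460), the host of the large miR-379/miR-410 cluster, averaged 4.86 RPKM in nuclear dox, 11.6 in nuclear no dox, 3.90 in total dox and 6.93 in total no dox. It was 2.40-fold lower in nuclear (log2 -1.26, SE 0.146, adjusted p = 5.25e-06) and 1.78-fold lower in total RNA (log2 -0.83, adjusted p = 2.44e-04), and it kept that direction and passed in each alternative run. All 3 RNAs of this maternal chain were lower in the dox columns in the main test, Meg3 by the most. Rtl1, a retrotransposon-derived gene between Meg3 and Rian, is transcribed from the paternal copy in the other direction. Its row averaged 2.35 and 5.32 RPKM in nuclear RNA with and without dox and was also lower (log2 -1.18, adjusted p = 1.14e-04). Whether reads were counted by strand is not stated, so this row may hold reads of the other strand. A fall of the paternal transcript itself was not tested. Dlk1, the paternally expressed Notch-like ligand of this cluster, had means of 0.0641 to 0.101 RPKM, or about 5 to 7 reads per library, in all 4 groups.

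Several rows of the table are small RNA genes inside Rian and Mirg, counted here from libraries of long RNA, so they do not measure mature miRNAs. Mature sequences from RefSeq (GRCm38.p6) are printed for the 3 miRNA genes with the highest means among these rows, with the seed, bases 2 to 8, in capitals.
mmu-miR-1188-5p: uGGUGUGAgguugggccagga
mmu-miR-1188-3p: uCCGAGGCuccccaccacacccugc
mmu-miR-341-5p: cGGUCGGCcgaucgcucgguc
mmu-miR-341-3p: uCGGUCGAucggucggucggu
mmu-miR-453: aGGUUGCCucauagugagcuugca
None of these 5 seeds is shared by another of them. Mir1188, inside Rian, had authors' means of 0.0104 RPKM in nuclear dox, 3.40 in nuclear no dox, 0 in total dox and 1.37 in total no dox. It was lower in nuclear RNA with a wide error (log2 -8.22, SE 2.57, adjusted p = 0.0120). Mir453, inside Mirg, had means of 0.0121, 3.01, 0 and 2.42 RPKM and was likewise lower in nuclear RNA (log2 -7.85, SE 2.59, adjusted p = 0.0157). Mir341, inside Rian, was at 0.858 RPKM in nuclear no dox, 0.00780 in total no dox and 0 in both dox groups, and was not tested. The pseudocount of 0.001 RPKM stretches such differences, since a library without reads enters the mean as 0.001. The nuclear call of Mir1188 ended without moderation (adjusted p = 0.0643), and that of Mir453 ended under 5 settings, among them no filter on low values (adjusted p = 0.0537). The snoRNA gene AF357425 inside Rian did not pass (log2 -7.57, SE 3.88, adjusted p = 0.0988).

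Nespas is the paternally made antisense RNA at the Gnas locus (chr2:174281237-174295436, minus strand). It is known to silence the Nesp transcript in cis, on the paternal copy. It averaged 1.87 RPKM in nuclear dox, 9.98 in nuclear no dox, 1.89 in total dox and 8.32 in total no dox. Nespas was 5.34-fold lower in nuclear (log2 -2.42, SE 0.161, adjusted p = 3.31e-08) and 4.40-fold lower in total RNA (log2 -2.14, SE 0.161, adjusted p = 1.68e-07). With the length trend removed its fall was larger, at log2 -2.86 and -2.51. Gnas, the gene of the stimulatory G protein alpha subunit on the other strand, went the other way, with means of 3.47, 1.91, 2.46 and 1.49 RPKM in the same order. Gnas was 1.81-fold higher in nuclear (log2 0.86, SE 0.162, adjusted p = 3.65e-04) and 1.65-fold higher in total RNA (log2 0.72, adjusted p = 0.00156). The table has a single row for Gnas, whose promoters are imprinted differently, so its transcripts were not separated. Whether reads were counted by strand is not stated, so reads of a gene and of its antisense partner cannot be told apart here or for Kcnq1ot1, Igf2r, Ube3a, Commd1, Mest and Nnat.

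H19, the maternally made noncoding RNA that shares enhancers with Igf2, was the noncoding member that was higher with dox (chr7:142575529-142578143, minus strand). It averaged 2.80 RPKM in nuclear dox, 0.255 in nuclear no dox, 0.848 in total dox and 0.115 in total no dox. These levels are low in no dox cells, at about 11 reads per library in nuclear and 5 in total RNA, against about 74 and 24 with dox. H19 was 10.97-fold higher in nuclear (log2 3.46, SE 0.378, adjusted p = 3.11e-06) and 7.30-fold higher in total RNA (log2 2.87, SE 0.378, adjusted p = 2.09e-05). It stayed higher in every alternative that tested it, while the filter of 5 RPKM removed it. Igf2, the growth factor gene of the same cluster, had means of 0.369, 0.173, 0.158 and 0.112 RPKM in the same order, under the filter.

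In the Snrpn domain of chromosome 7, Snurf, Snrpn and Ndn were higher and Ube3a lower in the dox columns, and Mkrn3 did not pass. Snurf and Snrpn are parts of 1 bicistronic transcript, which encodes a small nuclear protein and the spliceosomal protein SmN. Snurf averaged 8.90, 3.35, 5.997 and 2.35 RPKM and Snrpn 8.86, 5.02, 7.13 and 4.56 RPKM in the order nuclear with, nuclear without, total with and total without dox. Snurf was 2.66-fold higher in nuclear (log2 1.41, SE 0.167, adjusted p = 6.58e-06) and 2.56-fold higher in total RNA (log2 1.35, adjusted p = 1.20e-05), on about 8 to 21 reads per library over 0.216 kb. Snrpn was 1.77-fold and 1.56-fold higher (adjusted p = 3.33e-04 and 0.00234), and no longer passed with quantile normalization (log2 0.26 and 0.31) or with the length trend removed (0.06 and 0.05). The pair shares exons and a promoter, so its counts are not independent.

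Ndn, which encodes the growth-restraining protein necdin, showed the largest rise of the 22 coding members (chr7:62346569-62350262, plus strand). It averaged 2.16 RPKM in nuclear dox, 0.476 in nuclear no dox, 5.25 in total dox and 1.63 in total no dox. Ndn was 4.52-fold higher in nuclear (log2 2.18, SE 0.178, adjusted p = 2.13e-07) and 3.22-fold higher in total RNA (log2 1.69, SE 0.178, adjusted p = 3.02e-06), and passed in each alternative run. Its neighbour Mkrn3, a RING finger gene linked to the timing of puberty, averaged 1.68, 2.35, 1.47 and 2.07 RPKM. In the main test it did not pass in nuclear (log2 -0.49, adjusted p = 0.129) or total RNA (-0.50, adjusted p = 0.131). Over the alternatives the lowest adjusted p of Mkrn3 was 0.00218 and 0.00433, with log2 values down to -1.19 and -1.08. Magel2 and Peg12, the other paternally expressed intronless genes there, had means of 0.00512 to 0.455 RPKM.

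Ube3a encodes a ubiquitin ligase that is silenced on the paternal copy in neurons, where the antisense RNA Snhg14 runs across it, and is used from both copies in most other cells (chr7:59228750-59311536, plus strand). It averaged 2.01 RPKM in nuclear dox, 8.44 in nuclear no dox, 2.39 in total dox and 9.16 in total no dox. Ube3a was 4.19-fold lower in nuclear (log2 -2.07, SE 0.190, adjusted p = 6.21e-07) and 3.83-fold lower in total RNA (log2 -1.94, SE 0.190, adjusted p = 1.55e-06). With the length and GC trends removed the sign turned and it did not pass (log2 0.17 and 0.10). Snhg14, the antisense RNA, was also lower, with authors' means of 0.346 RPKM with and 1.64 RPKM without dox in nuclear RNA (log2 -2.24, adjusted p = 3.41e-06), and it too turned with the length and GC trends removed (log2 1.01, adjusted p = 0.00351).

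Commd1 and Zrsr1 lie on opposite strands of chromosome 11, with Zrsr1 inside an intron of Commd1. Commd1, a gene of copper export and NF-kappaB control (chr11:22896136-22982382, minus strand), averaged 14.5 RPKM in nuclear dox, 3.58 in nuclear no dox, 10.2 in total dox and 3.95 in total no dox. It was 4.04-fold higher in nuclear (log2 2.01, SE 0.199, adjusted p = 1.21e-06) and 2.59-fold higher in total RNA (log2 1.37, SE 0.199, adjusted p = 4.81e-05). Zrsr1, a paternally expressed retrogene for a splicing factor (chr11:22972005-22976496, plus strand), averaged 1.99, 2.92, 3.06 and 3.99 RPKM in the same order. Zrsr1 was 1.47-fold lower in nuclear (log2 -0.55, SE 0.154, adjusted p = 0.005998) and 1.30-fold lower in total RNA (log2 -0.38, adjusted p = 0.0431).

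Igf2r was lower in the dox columns and Grb10 did not pass. Igf2r, the receptor that clears IGF2 (chr17:12682406-12769664, minus strand), averaged 2.37 RPKM in nuclear dox, 4.90 in nuclear no dox, 3.45 in total dox and 7.29 in total no dox. It was 2.06-fold lower in nuclear (log2 -1.04, SE 0.152, adjusted p = 4.07e-05) and 2.11-fold lower in total RNA (log2 -1.08, adjusted p = 3.65e-05), and passed in each alternative run. Airn, the paternal antisense RNA known to silence Igf2r, was listed at 0 in both dox groups and at 0.0463 RPKM in nuclear and 0.0943 RPKM in total RNA without dox, or about 3 and 5 reads per library, so no fold is given. Grb10, a growth factor receptor adaptor, averaged 2.09, 1.97, 1.78 and 1.94 RPKM. In the main test it did not pass in either fraction (log2 0.08 and -0.12, adjusted p = 0.682 and 0.549). Over the alternatives its lowest adjusted p was 0.0242 in nuclear RNA, with log2 values from -0.06 to 0.49.

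Transcription factor and retrotransposon-derived genes went in different directions. Peg3, a paternally expressed zinc finger gene, averaged 2.00 RPKM in nuclear dox, 4.16 in nuclear no dox, 2.56 in total dox and 3.95 in total no dox, and was 2.08-fold and 1.55-fold lower (log2 -1.06 and -0.63, SE 0.156, adjusted p = 4.81e-05 and 0.00319). Peg3 no longer passed in nuclear (log2 -0.26) or total RNA (-0.01) with the length trend removed. Plagl1, a zinc finger growth regulator, averaged 1.63, 2.54, 5.85 and 8.28 RPKM in the same order and was lower (log2 -0.64 and -0.50, SE 0.169, adjusted p = 0.00435 and 0.0190). Its fall too did not pass with the length trend removed (log2 -0.38 and -0.36). Peg10, a capsid-like gene that the placenta needs, averaged 7.16, 5.28, 15.6 and 10.2 RPKM and was higher (log2 0.44 and 0.61, SE 0.162, adjusted p = 0.0276 and 0.00474). The nuclear call of Peg10 ended without a filter, without moderation, with untrended moderation, with median centring and by the authors' q-value, and quantile normalization turned its sign in nuclear and total RNA (log2 -0.10 and -0.04).

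Of the remaining coding members, Copg2 and Trappc9 were higher in the dox columns. In the main test Mest, Mcts2, H13, Nnat and Impact did not pass in either fraction. Each passed in nuclear RNA in at least 1 alternative, with lowest adjusted p of 2.69e-04, 0.0394, 0.0328, 6.77e-04 and 1.81e-04 in that order. Nuclear log2 values over the alternatives ran from -0.85 to -0.04 for Mest, -1.33 to -0.19 for Nnat and -0.91 to 0.31 for Impact. In total RNA these 3 also passed in at least 1 alternative. Copg2, a coat protein gene of vesicle transport whose end overlaps Mest, averaged 3.09, 1.83, 5.204 and 2.71 RPKM and was 1.68-fold and 1.92-fold higher (adjusted p = 0.00117 and 2.35e-04). Mest, a paternally expressed hydrolase-like gene, averaged 11.03, 11.4, 4.36 and 4.95 RPKM and did not pass in nuclear (log2 -0.04, 95% interval -0.37 to 0.28) or total RNA (-0.19, -0.51 to 0.14). Trappc9, a trafficking gene that contains Peg13, averaged 2.19, 1.34, 2.204 and 1.23 RPKM in the same order and was 1.64-fold and 1.79-fold higher (adjusted p = 0.0149 and 0.00637), which no longer passed with the length and GC trends removed (log2 0.45 and 0.53). Those that did not pass in either fraction also included Mcts2 and its host H13, Nnat and Impact, whose log2 values ran from -0.38 for H13 to 0.46 for Mcts2 in nuclear RNA. H13, a signal peptide peptidase gene, averaged 1.03 to 1.53 RPKM over the 4 groups and the retrogene Mcts2 in its intron 3.09 to 5.51 RPKM. Nnat, a membrane protein gene of the nervous system, averaged 1.70 to 2.99 RPKM and Impact, a regulator of translation, 7.94 to 11.7 RPKM. Peg13, a noncoding RNA inside Trappc9, was under the filter at 0.168 and 0.553 RPKM in nuclear RNA with and without dox.

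The 16 members under 1 RPKM were fitted only where no filter on low values was applied, a setting under which 22.1% of 19409 genes were higher and 18.8% lower in nuclear RNA and 20.9% and 15.3% in total RNA. Of these members, Ascl2 (log2 2.31, SE 0.517, adjusted p = 0.00573) and Cdkn1c (1.79, SE 0.549, adjusted p = 0.0271) were higher in nuclear RNA. Peg13 (-1.72, SE 0.440, adjusted p = 0.0119), Zim1 (SE 1.65 on the log2 scale, adjusted p = 0.0373) and Airn were lower there, and in total RNA Airn and Rasgrf1, a Ras exchange factor gene listed above 0 in total no dox alone, were lower. About 0 to 45 reads per library stand behind these genes, so the pseudocount weighs heavily in each value. Cdkn1c and Ascl2, which Kcnq1ot1 is known to silence in cis in embryo or placenta, reached at most 0.478 and 0.764 RPKM and did not pass in total RNA (adjusted p = 0.0727 and 0.116).

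The dox difference did not differ between nuclear and total RNA by a test for any of the 28 members. In the fit of the difference of the 2 effects 0 members passed, and 0% of all 10197 genes did, by limma with the same adjustment. At an unadjusted p below 0.05 there were 2 members, Meg3 (difference log2 -0.53, SE 0.243, adjusted p = 0.373) and Commd1 (0.64, SE 0.282, adjusted p = 0.353), and 1338 genes in all. The other settings run gave 0 members too, and 0 to 121 genes in all. The median SE of such a difference was 0.238, and the 0.64 of Commd1 did not pass after adjustment. Differences between fractions of that SE, and also well above it, could thus go undetected with these libraries.

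Members with longer exons had lower dox differences, with exceptions. Spearman's rho between exon length and the dox difference was -0.552 over the 28 members in nuclear and -0.538 in total RNA, and -0.416 and -0.343 over the 9989 tested genes with a gene model. These are descriptions across genes that share libraries. Tested genes were also split by exon length into 5 equal parts. The longest part, with exons from 7532 bases on, held 11 members with a median of -1.04 in nuclear RNA, against -0.53 for all its genes. Among them were Kcnq1ot1, Ube3a, Rian, Meg3, Peg3 and Igf2r, and Gnas and Trappc9 were the members of those 11 that passed as higher. The shortest part, up to 2317 bases, held 6 members with a median of 0.57, against 0.96 for all its genes. Nespas, at 3.14 kb, and H19, at 2.46 kb, were in the same part and moved in opposite directions. With the length trend removed, 8 of the 10 members called higher and 7 of the 10 called lower in nuclear RNA kept their call, and with the length and GC trends removed 8 and 6 did. Of all genes with a gene model, 35.8% were higher and 27.2% lower with the first removed, and 32.7% and 26.2% with both. In total RNA 8 of the 10 higher and 7 of the 10 lower calls were kept with the length trend removed, and 8 and 5 with both. The shares of all genes there were 34.8% higher and 25.9% lower, and 32.4% and 25.5% with both. Of the 6 noncoding members 4 were still lower with the length trend removed and 3 (Meg3, Mirg and Nespas) with both removed. The part of transcript length, library depth or RNA quality in these differences was not tested.

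**Figure D3:**
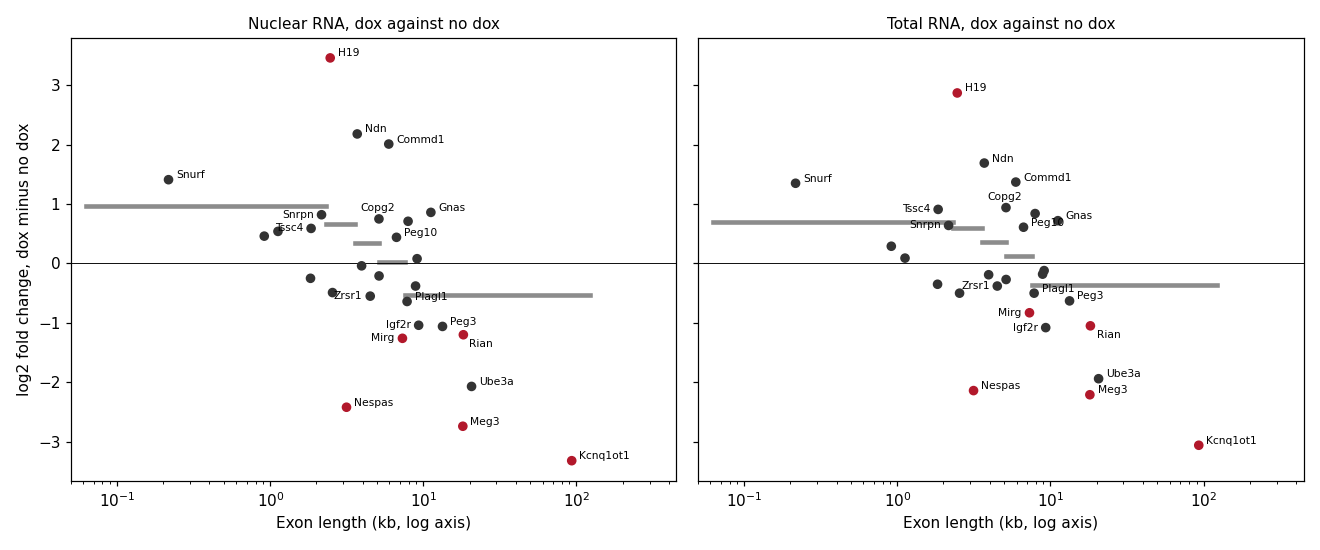
Log2 fold change of dox against no dox of the 28 tested members against their exon length in kilobases (log axis), in nuclear (left) and total RNA (right). Red points are noncoding RNAs, black points coding genes, and members that passed are named except Trappc9; grey bars are the medians of all tested genes in each of 5 equal parts by exon length, which run from 0.96 to -0.53 in nuclear and from 0.69 to -0.37 in total RNA.

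Nuclear against total RNA asks where the transcripts of these genes lie, since long noncoding RNAs that act in cis stay in the nucleus. Total RNA holds the nuclear RNA as well, so a ratio near 1 does not place a transcript in the cytoplasm. Without dox 6 members were higher in nuclear RNA, 7 were lower and 15 did not pass, against 4.01% higher and 34.7% lower among all tested genes, whose median was log2 -0.31. Those higher were Mest, Phlda2, H19, Mirg, Snurf and Meg3. With dox 5 were higher, 6 lower and 17 did not pass, against 5.84% and 34.8% of all tested genes, whose median was -0.32. The members higher with dox were Mest, Phlda2, H19, Snurf and Gnas. In the main test Gnas passed with dox (log2 0.50, adjusted p = 0.0258) and not without it (0.36, adjusted p = 0.0955). The members' medians were 0.05 and -0.11. Since most genes lay below 0, the split depends on the scale: with each value centred on the median gene 10 members were higher and 3 lower both without and with dox, and with quantile normalization 13 and 3 without and 9 and 3 with dox. Of all tested genes, centring gave 11.3% higher and 15.4% lower without and 16.4% and 13.5% with dox, and quantile normalization 18.3% and 17.8% without and 9.23% and 10.7% with dox. The no dox comparison and the nuclear dox comparison share the nuclear no dox libraries, as do the corresponding pairs of the other comparisons.

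**Figure D4:**
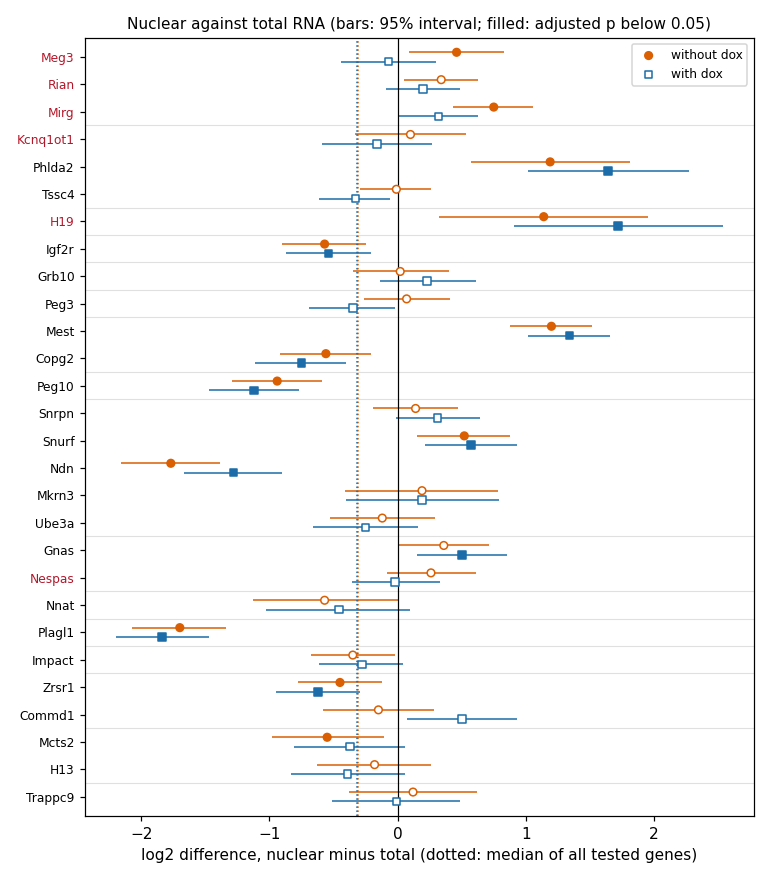
Log2 difference of nuclear against total RNA for each tested member, without (orange) and with dox (blue). Bars are 95% intervals, filled marks passed at an adjusted p below 0.05, and dotted lines are the medians of all tested genes (-0.31 and -0.32); Mest, Phlda2 and H19 lie to the right of 1, and Ndn and Plagl1 to the left of -1, under both conditions.

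Of the noncoding members, 3 were higher in nuclear RNA without dox and none was lower. Mirg was 1.68-fold higher (log2 0.75, SE 0.146, adjusted p = 0.00141), H19 2.20-fold (log2 1.14, SE 0.378, adjusted p = 0.0297) and Meg3 1.38-fold (log2 0.46, SE 0.172, adjusted p = 0.0479). The call of Meg3 ended without a filter, without moderation and with untrended moderation (adjusted p = 0.0800, 0.0838 and 0.0608). Rian (log2 0.34, adjusted p = 0.0600), Nespas (0.26, adjusted p = 0.218) and Kcnq1ot1 (0.10, adjusted p = 0.724) did not pass. With centred values, 5 of the 6 were higher in nuclear RNA, and with quantile normalization all 6. With dox H19 alone passed among the 6, at 3.30-fold (log2 1.72, adjusted p = 0.00315). Malat1 and Neat1, known to stay in the nucleus, were not higher in nuclear than in total RNA. Malat1 was lower in nuclear RNA without (log2 -0.44, adjusted p = 0.0154) and with dox (-0.86, adjusted p = 2.21e-04), and Neat1 did not pass without (-0.14, adjusted p = 0.451) and was lower with dox (-0.70, adjusted p = 0.00134). What this means for the ratios of the members was not tested. Both were also lower in the dox columns of nuclear RNA, at 77.3 against 467 RPKM for Malat1.

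Among coding members, Mest and Phlda2 were the 2 with the highest nuclear ratio. Mest was 2.29-fold higher in nuclear RNA without dox (log2 1.20, SE 0.149, adjusted p = 5.08e-05) and 2.53-fold with dox (log2 1.34, adjusted p = 2.57e-05), while Copg2, its overlapping neighbour, was lower (log2 -0.56 and -0.75, adjusted p = 0.0154 and 0.00304). Phlda2 was 2.28-fold and 3.12-fold higher (adjusted p = 0.00567 and 7.33e-04), on about 10 to 33 reads per library. Snurf was 1.43-fold and 1.49-fold higher (adjusted p = 0.0267 and 0.0159). Its call without dox ended without a filter and without moderation (highest adjusted p = 0.0680). Of the lower members 3 stayed lower under each scaling run: Ndn (log2 -1.77 without and -1.28 with dox), Plagl1 (-1.70 and -1.84) and Peg10 (-0.94 and -1.12). Igf2r, Copg2 and Zrsr1 were lower with and without dox but no longer passed with values centred on the median, and Mcts2 (log2 -0.55 without dox, adjusted p = 0.0464) did not pass then either.

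Further imprinted genes and their neighbours were taken from a list. Of 63 such genes 51 have a row and 30 were tested, of which 7 were higher and 15 lower in nuclear RNA (median log2 -0.67) and 5 higher and 15 lower in total RNA (-0.63). Among all tested genes 43.1% were higher and 26.3% lower in nuclear RNA, and 41.5% and 22.8% in total RNA. Beside Mir1188, those with the largest negative differences in nuclear RNA were Xist, which silences an X chromosome (log2 -3.69, adjusted p = 4.19e-07), Gpr1, a chemerin receptor gene (-3.26, adjusted p = 3.77e-06), Tsix, the antisense RNA of Xist (-2.79, adjusted p = 1.05e-06), and the long noncoding RNA Platr20, which did not pass (-2.79, adjusted p = 0.181). Those with the largest positive differences were Dio3, a thyroid hormone deiodinase gene (1.16, adjusted p = 0.00490), Zfp64 (1.04), the histone chaperone gene Nap1l4 (0.96), the adaptor gene Gab1 (0.87) and Ddc, aromatic amino acid decarboxylase (0.80). Dio3 ends the Meg3 cluster, where it was tested at 1.03 against 0.458 RPKM, and it did not pass in total RNA (log2 -0.08, adjusted p = 0.825) or, in nuclear RNA, with the length trend removed (0.36). The nuclear differences of Gab1, Nap1l4 and Ddc no longer passed with quantile normalization (log2 -0.07, 0.24 and 0.05).

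Factors that set or keep imprints went both ways. Of 36 listed 33 were tested, with 11 higher and 14 lower in nuclear RNA (median log2 0.11) and 15 higher and 12 lower in total RNA (0.27), beside the same shares of all tested genes, 43.1% and 26.3% in nuclear and 41.5% and 22.8% in total RNA. The largest positive differences in nuclear RNA were those of the N-terminal acetyltransferase gene Naa10 (log2 2.07), the chromatin subunit genes Rbbp4 (1.89) and Mbd3 (1.84), Trim28, the corepressor that ZFP57 recruits (1.77, adjusted p = 6.89e-09), and the histone methyltransferase gene Ehmt2 (1.64). The largest negative ones were those of the chromatin remodeller gene Atrx (-2.68), Zfp445, a second imprint-protecting zinc finger gene (-2.13, adjusted p = 9.67e-08), the DNA demethylation genes Tet2 (-2.07) and Tet1 (-1.87), and Arid4b (-1.94). Zfp57, given here because its motif was searched and not by rank, was lower, at 11.6 against 24.7 RPKM in nuclear RNA (log2 -1.09, SE 0.128, adjusted p = 5.85e-06). Trim28 averaged 344 RPKM with and 101 RPKM without dox in nuclear RNA, but with quantile normalization its difference turned and did not pass (log2 -0.23, adjusted p = 0.0582). Arid4b no longer passed with the length and GC trends removed (-0.37).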

How the data were processed

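Libraries were made from nuclear or whole-cell RNA with a directional, rRNA-depleting kit, per the labels' protocols. Tools named in the submitters' processing notes are TopHat and bcl2fastq 2.17.1, with mm10 as build, and per the file headers RPKM and an ANOVA came from Partek 6.6. Read counting and its use of strand are not given in the sources used here. The deposited table holds group means of log2(RPKM + 0.001), and for dox against no dox the authors' p-value and q-value, a linear ratio, and a fold change with a sign, taken as a score.

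Each gene's residual SD was recovered from the authors' 2 deposited p-values: with 6 degrees of freedom both gave the same SD within 0.01 (log2 ratio) for 100% of 16038 genes (22.9%, 31.0% and 19.1% with 5, 7 and 8). This was read as a fit of 10 libraries, nuclear 3 with and 2 without dox, total 2 with and 3 without. The group sizes came from the t values of genes above 0 in 1 group alone. These matched reads in 1 of 3 libraries for 139 of 152 genes in nuclear dox and 728 of 948 in total no dox. They matched reads in 1 of 2 libraries for 351 of 400 genes in nuclear no dox and 139 of 146 in total dox. Which 2 of 12 libraries were left out is unknown. limma 3.58.1 (R 4.3.3) with trended, moderated variances tested 10197 genes with at least 1 RPKM in 1 group, in 5 comparisons, each Benjamini-Hochberg adjusted over all genes at a threshold of 0.05, and was tested on simulated data. Log2 fold changes keep the deposited pseudocount, and RPKM are geometric means, so a library without reads pulls a mean far down. Depths came from the steps of low RPKM values. Reads per library are RPKM times exon length times mean depth, an approximation that uses GENCODE vM21 lengths (19178 of 19716 genes matched). Alternatives were 2 other filters, 2 other moderations, quantile normalization, median centring, trends on exon length and on length with GC content removed, and the authors' q-value. Every member of at least 1 RPKM was named. Of 2 further lists the 5 tested genes with the largest nuclear dox difference each way were named. The members and lists were chosen with earlier results of these data known.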

Additional observations from a re-analysis of the deposited data

How the results depend on the processing

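Of 1126 values of single members under the alternatives, 60 no longer passed, 66 newly passed, 14 that passed in at least 1 of the settings compared turned sign, and 986 kept their side of the threshold. These 986 include 81 that passed in neither setting and turned sign. With the length and GC trends removed these log2 values turned: Rian 1.09 in nuclear and 1.05 in total RNA and Ube3a 0.17 and 0.10 for dox, Phlda2 -0.73 in total RNA and Tssc4 -0.51 in nuclear RNA for dox, and Tssc4 0.37 without dox and Meg3 0.49 with dox for nuclear against total RNA. With the length trend alone removed Tssc4 turned to -0.26 (nuclear dox effect) and 0.44 (nuclear against total, no dox). With quantile normalization Tssc4 turned to -0.01 and 0.41 in these comparisons and Peg10 to -0.10 and -0.04 for dox in nuclear and total RNA. The cause was not tested. Counts of members called for dox stayed within 1.5 times of 10 and 10 except among the 9 tested members that overlap no other gene of the table, fewer genes by construction, with 3 higher and 2 lower in nuclear and in total RNA. Nuclear against total RNA gave these 9 members 2 higher and 3 lower both without and with dox. Without dox, members higher in nuclear RNA numbered 13 (quantile), 10 (median centred), 11 (length) and 11 (length and GC), each with 3 lower. With dox they numbered 9, 10, 10 and 11, again with 3 lower, and 3 were higher with a filter of 5 RPKM. No paired analysis was possible because the deposited columns are group means without a replicate number. Leaving out single libraries was not run for the same reason. Low reads limit H19, Snurf and Phlda2 most.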
